A study of Mus musculus with 37 samples.

Results

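The genes described here encode the proteins of the cytosolic ribosome. They are the rows of the count table whose symbol is Rpl or Rps followed by digits and an optional letter suffix, together with Rplp0, Rplp1, Rplp2 and Rpsa. Names ending in -ps and the Rps6k kinases were left out, and so was Rps19bp1, which is not a ribosomal protein. This gave 94 genes of the 56351 in the table, 57 with large-subunit names and 37 with small-subunit names. Of these, 15 carry the name of a paralog or retrogene copy, and 2 (Rpl32l and Rps12l1) never reached 10 counts in a library.

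A eukaryotic ribosome has a large subunit, which joins the amino acids, and a small subunit, which reads the mRNA. The mRNAs of these proteins are among the most abundant in most cells. Many of them begin with a run of pyrimidines at the cap, the 5′ TOP motif, through which mTOR signalling controls their translation as a group. Rpl22 is a protein of the large subunit, and Rpl22l1 is its close paralog.

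In RiboTag mice a Cre recombinase switches Rpl22 to a form with a haemagglutinin tag, so that an antibody to the tag brings down ribosomes with the mRNA they carry. All mice were homozygous for the CD169-Cre knock-in and for the Rpl22HA allele, and there was no untagged or Cre-negative group. CD169, the product of Siglec1, marks the macrophages of lymph node sinuses, and the labels call the cells CD169 macrophages. Sequenced were the duodenal, jejunal, ileal, ceco-colonic, inguinal, liver, celiac, super cervical, deep cervical, mediastinal and iliac lymph nodes and the spleen, with 3 libraries each, and 1 isotype control pull-down from jejunal node. Age, sex and whether animals were pooled are not given in the sources used here.

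Each read of Rpl22 mRNA is counted whether or not the allele was switched, so Rpl22 counts measure its mRNA and not the tag. Siglec1 itself, the locus into which Cre was placed, held 0 to 229.9 counts in the 36 pull-downs. Marco, another gene of sinus macrophages, held up to 247390 counts.

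The start of an mRNA is what the 5′ TOP motif describes, so annotated start sites are printed for Rpl22, Rpl22l1 and some members that lead comparisons. Other leading members, such as Rpl39l, Rpl30 and Rplp1, are not printed, so the printed set does not stand for the leading members. Each line is 30 bases, 10 before and 20 from the start site, 5′ to 3′, from RefSeq on build GRCm38.p6. Capitals mark a run of 7 or more C or T that opens with C and starts within 10 bases before or 15 after the start site.
Rpl22l1, the paralog of the tagged protein (chr3:28805498-28805527, + strand): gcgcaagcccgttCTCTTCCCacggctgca
Rplp2, a stalk protein (chr7:141447641-141447670, + strand): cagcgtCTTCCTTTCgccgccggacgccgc
Rpl38, a small large-subunit protein (chr11:114668570-114668599, + strand): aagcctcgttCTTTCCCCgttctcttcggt
Rpl15, a large-subunit protein (chr14:18270967-18270996, - strand): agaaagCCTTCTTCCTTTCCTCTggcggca
Rps27l, the paralog of Rps27 (chr9:66946076-66946105, + strand): CCTCCCCgccgcctctatcccggaagttgc
Rps27l, its second annotated start (chr9:66946403-66946432, + strand): gggcttcagggtcactaacgggcctcgcag
Rpl22, the tagged protein (chr4:152325716-152325745, + strand): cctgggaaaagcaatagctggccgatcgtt
Rpl22, its second annotated start (chr4:152324426-152324455, + strand): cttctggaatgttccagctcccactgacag
Rpl4, a large-subunit protein (chr9:64173377-64173406, + strand): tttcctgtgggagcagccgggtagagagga
Rps3, a small-subunit protein (chr7:99483690-99483719, - strand): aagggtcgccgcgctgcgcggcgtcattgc

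The first 5 windows hold such a run and the others do not. In Rps27l the run ends before the start site, so it lies outside the annotated mRNA. Both starts that RefSeq gives for Rps27l and for Rpl22 are shown, and for Rps27l only 1 holds the run. Rpl10a, not printed, likewise has 1 start with the run and 1 without, and its run also ends before the start site. A promoter was found for 67 of the 94 genes, 79 promoters in all, and 31 of the 79 (39.2%) held the run near the start. Among all 32851 RefSeq promoters 11.4% did. The letters CTTTCC, searched in the same window on the gene's strand only, were present in 13.9% of the members' promoters and in 1.04% of all. CTTTCC can lie inside the longer run, so these shares are not separate. A match describes the annotated sequence only.

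Libraries differed greatly in depth, with 221911 counts in the shallowest (duodenal) and 69139450 in the deepest (mediastinal). The 94 genes together held 4.33% to 9.07% of all counts in the 18 libraries of the mediastinal, ileal, ceco-colonic, inguinal and both cervical nodes. Among these 6 deeper nodes the deep cervical libraries were lowest, at 4.59%, 5.14% and 4.33%. The shares in the spleen were 2.62%, 7.47% and 1.42%, so that only the second library came near the nodes. The jejunal shares spread over 2.10%, 4.98% and 0.205%, and the iliac ones over 0.453%, 2.35% and 0.612%. In the duodenal, liver and celiac nodes no library exceeded 0.362%. Depth moved with these shares. Features that carry ribosomal RNA sequence (Gm19220, Rn18s-rs5 and Lars2) took 74.3% to 85.6% of the counts in the duodenal, liver and celiac libraries, and 1.97% to 27.3% in the 6 deeper nodes. Without those features the member share was 0.607% to 1.67% in the former and 4.48% to 9.70% in the latter. The part that depth and library quality have in these shares was not tested.

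**Figure D1:**
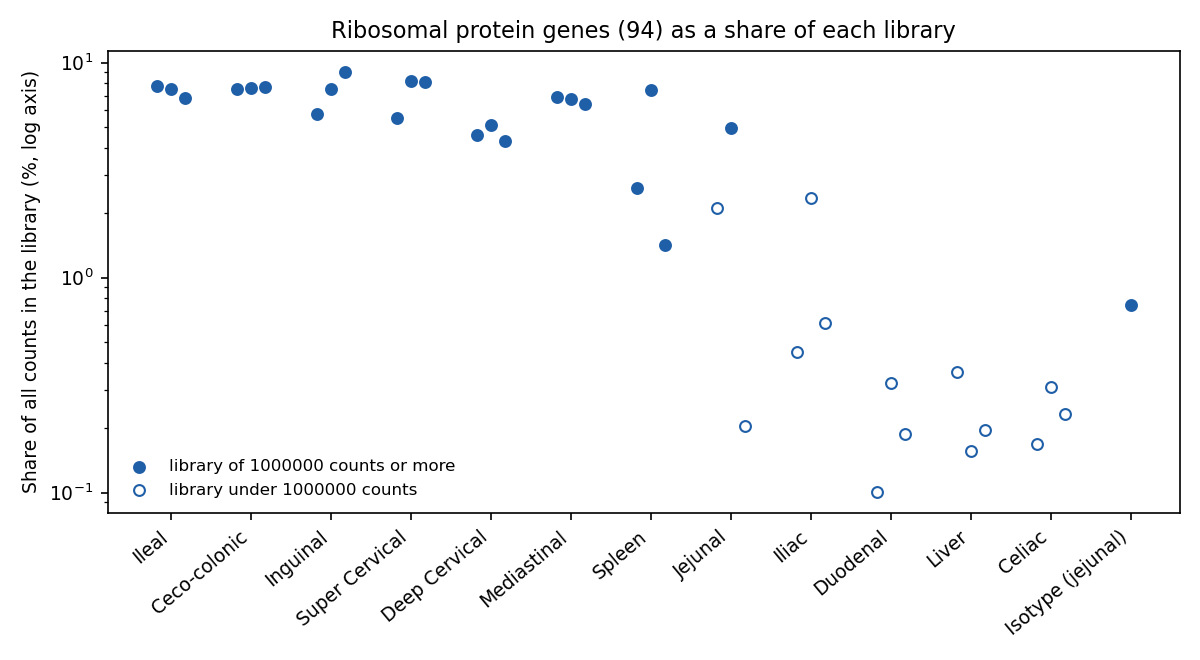
Share of all counts held by the 94 ribosomal protein genes (vertical log axis, percent), with 1 point per library and sites along the horizontal axis. Filled points are libraries of 1000000 counts or more. The 6 deeper nodes lie between 4.33% and 9.07%, and the isotype control lies at 0.742%.

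The isotype control asks how much of the ribosomal protein mRNA comes down without the antibody to the tag. In that library the 94 genes held 0.742% of 5002926 counts (95% Wilson interval 0.735% to 0.750%, counting error only), below 2 of the 3 jejunal pull-downs and above the third. Levels as CPM, counts scaled to a plain library total of 1000000, were set against the isotype with 1 CPM added to each side. Of 87 members with 10 or more counts in a jejunal or isotype library, 57 were at least 2 times higher in the mean of the pull-downs (27.5% of all genes were), and 9 at least 2 times lower (25.6%). The median log2 ratio was 1.88 for the members and -0.0786 for all genes counted. There is 1 isotype library, so the difference has no replicate check.

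The jejunal libraries did not act alike. Taken one by one, their members' median log2 ratios to the isotype were 1.22, 2.88 and -1.61, against -0.466, -0.0793 and -0.942 for all genes. Of the 94 members 67 were above the isotype level in the first library, 82 in the second and 22 in the third. The third library held 525 member counts in all.

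Rpl22l1 stood at 59.8, 145 and 7.65 CPM in the 3 jejunal pull-downs and at 10.8 CPM in the isotype control. Rpl22 stood at 22.3, 48.9 and 0 CPM against 15.0, a log2 ratio of 0.63 for the mean, and 66 of the 87 had a higher one. Rps21 and Rps7, proteins of the small subunit, had log2 ratios of 4.41 and 4.39. Rpl7l1, a paralog of Rpl7, had the highest ratio, 5.29, on 6.75 isotype counts.

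The opposite end of the scale was held by Rpl17, a protein of the large subunit's exit tunnel, at 48.3, 106 and 0 CPM in the pull-downs and 243 in the isotype control. Rpl28 was at 25.3, 88.8 and 8.71 CPM against 113. Rps20 followed with 84.7, 298 and 0.721 CPM against 316, and Rpl35rt, a retrogene copy, with 69.3, 272 and 0 CPM against 288. All 4 were higher in the isotype control than in each pull-down. B cell markers took 0.249% of the isotype counts and 0.0287% to 0.0789% of the jejunal ones. Their part in these ratios was not tested.

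**Figure D2:**
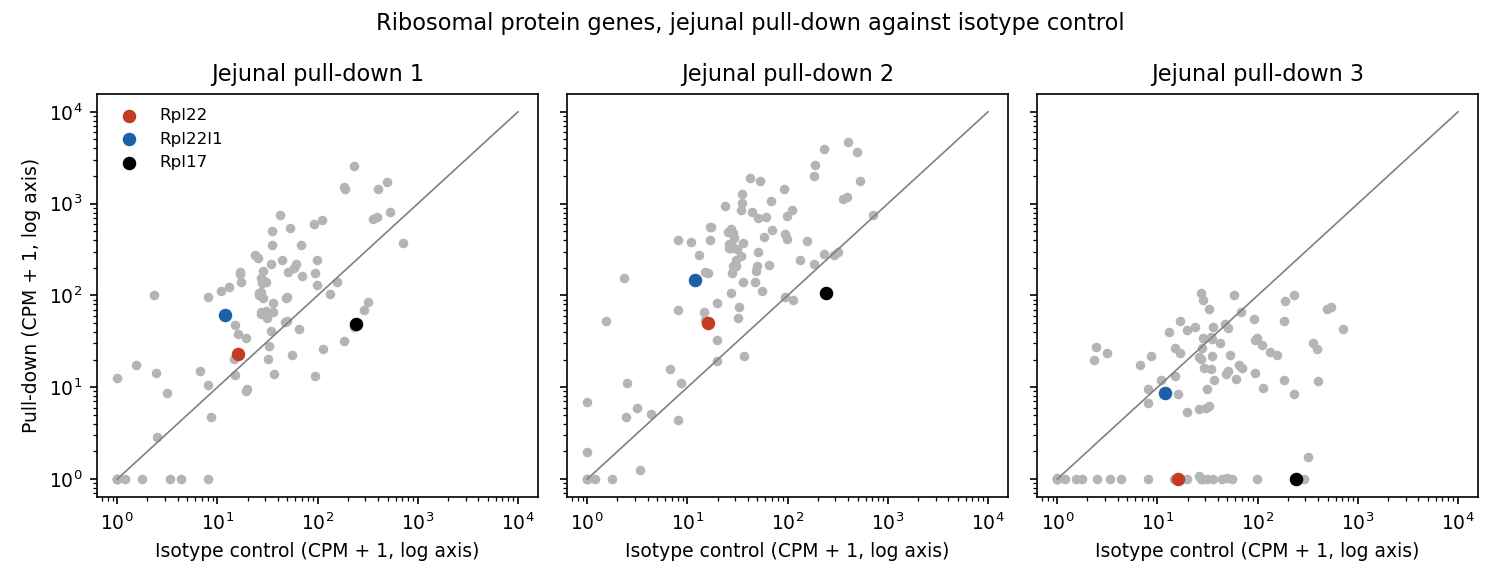
CPM + 1 of each ribosomal protein gene in the isotype control (horizontal log axis) against each jejunal pull-down (vertical log axis), 1 panel per pull-down, with the line of equal values in grey. Most members lie above the line in pull-downs 1 and 2 and below it in pull-down 3, while Rpl17 lies below it in all 3.

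Rpl22 mRNA was lower in the spleen than in the 6 deeper nodes, and no difference among those nodes passed the test in the fit that holds the spleen. The result for Rpl22 without the spleen libraries is not given here. As a share of all member counts, Rpl22 was called among the nodes, as given below. From here CPM are scaled to TMM-adjusted totals of the 21 libraries of these nodes and the spleen. Rpl22 reached 172 ± 16.6 CPM in the mediastinal node (SD, n = 3 here and below), 152 ± 24.7 in the ceco-colonic, 148 ± 21.5 in the super cervical, 146 ± 55.1 in the inguinal, 140 ± 15.8 in the ileal and 108 ± 16.9 in the deep cervical node. Neighbours in this order differed by less than the larger of their SDs, apart from the ileal and deep cervical nodes, and an F test over the 6 nodes gave an adjusted p of 0.739 (edgeR quasi-likelihood test, Benjamini-Hochberg adjustment over 16878 genes). The spleen libraries held 25.1, 80.3 and 24.6 CPM, all below the lowest node library, at 83.3 CPM. Rpl22 was 1.67 ± 0.35 higher (log2, SE) in the nodes than in the spleen, with an edgeR adjusted p of 0.000271. Without the second spleen library, which holds most of the spleen's counts, the difference was 2.51. Against that library alone it was 0.99 ± 0.41 with an edgeR adjusted p of 0.0639, where the 1 spleen library is assumed to vary like those of other sites.

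Rpl22l1 was the more abundant of the pair in counts. It reached 348 ± 9.74 CPM in the ceco-colonic node, 319 ± 46.7 in the super cervical, 286 ± 67.7 in the inguinal, 266 ± 2.50 in the ileal, 221 ± 17.7 in the mediastinal and 207 ± 38.2 in the deep cervical node. The edgeR adjusted p of the F test was 0.558, and 0.0335 when the spleen libraries were left out of the fit, so the call depends on them. In the spleen Rpl22l1 held 54.9, 227 and 38.2 CPM, and the second library overlapped the nodes. The edgeR difference from the nodes was 1.30 ± 0.38 (log2, adjusted p = 0.00447), and 0.40 ± 0.33 against the second library alone (adjusted p = 0.370). It was 2.50 without that library.

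The order of the 2 genes was the same in all 18 libraries of the deeper nodes, but its size was not. The ratio of Rpl22l1 to Rpl22 counts was 1.39, 1.23 and 1.24 in the mediastinal node and 1.30 to 2.69 in the other 5. It was 2.19, 2.83 and 1.504 in the spleen, 2.69 and 2.96 in the first 2 jejunal pull-downs, and 0.721 in the isotype control. No transcript length enters this ratio, so it does not compare molecules.

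The duodenal, liver and celiac libraries held 2.85 to 15.6 Rpl22 counts and 0 to 6.94 Rpl22l1 counts, which sets the order of the 2 genes beyond the reach of this depth. The iliac libraries held 4.61, 12.6 and 18.9 Rpl22 counts and 7.92, 26.0 and 13.2 Rpl22l1 counts.

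**Figure D3:**
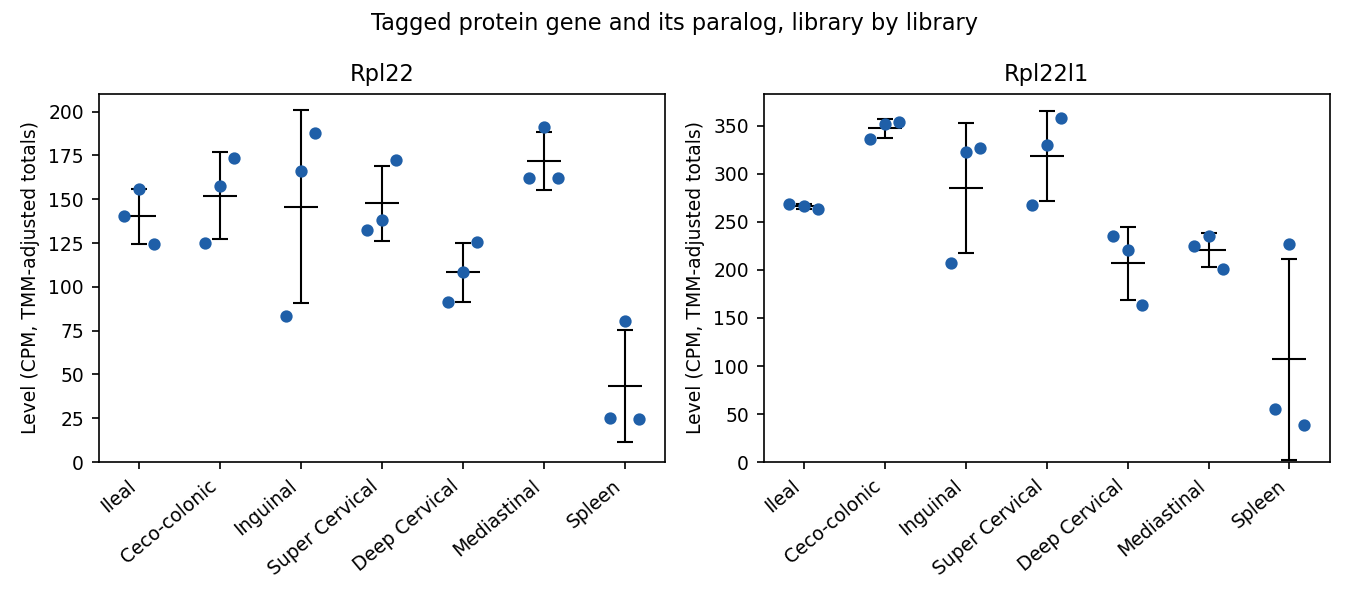
Level of Rpl22 (left) and Rpl22l1 (right) in CPM of TMM-adjusted totals, with 1 point per library and bars for the mean ± SD of 3 libraries. The 3 spleen libraries of Rpl22 lie between 24.6 and 80.3 CPM, under every node library, and the second spleen library of Rpl22l1 lies among the nodes.

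Within a node the members were far from equal in abundance. In the ileal node 86 members had a level and a transcript length, and CPM per kilobase ranged from 0.325 to 6826 with a median of 665. There were 25 members above 1000 CPM per kilobase and 4 below 10. The 4 were Rpl10l, Rpl27rt, Rpl12 and Rpl39l. Rpl10l and Rpl39l are copies known chiefly from the testis, while Rpl12 is a core protein of the ribosomal stalk base, here at 2.95 CPM per kilobase. Reads were assigned by kallisto, which shares them between near-identical sequences, and 322 rows of the table carry -ps names, so levels of Rpl12, Rpl10 and other members with many copies are uncertain.

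In counts, the 10 leading members held 38.4% of the ileal ribosomal protein pool, the sum of the 94 genes. Rplp2, an acidic protein of the stalk that recruits translation factors, led with 5.04% of the pool. It was followed by Rps9 with 4.68%, Rpsa with 4.51%, Rpl38 with 4.13% and Rplp1, the partner of Rplp2 on the stalk, with 3.72%. Rpsa, also known as a laminin receptor, stood at 1468 ± 350 CPM in the deep cervical and 4554 ± 626 in the ceco-colonic node, the ends of its range over the 6 nodes. Rplp0, the stalk protein to which Rplp1 and Rplp2 bind, stood between 240 ± 8.76 CPM in the deep cervical and 442 ± 92.0 in the ceco-colonic node. Rpsa differed among the nodes (edgeR adjusted p = 0.0462) and Rplp0 missed the threshold (edgeR adjusted p = 0.473).

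The 15 paralog and retrogene names held 2.98% of the ileal pool, most of it Rpl36al, at 1.13% to 2.04% of the pool over the 18 node libraries. Rpl35rt held 0.380% to 0.612% there and 3.88% in the isotype control. Rpl37rt held 0.0254% to 0.213%, Rps27l 0.0308% to 0.455% and Rpl7l1 0.0358% to 0.152%. Rpl39l, Rpl27rt, Rps27rt and Rpl10l stayed under 0.0350% in these libraries, and Rpl6l under 0.00500%. Rpl3l, the copy of Rpl3 that striated muscle uses, held 68.9, 56.4 and 14.0 counts in the deep cervical node, 0.0526%, 0.0226% and 0.00205% of the pool, and at most 0.000447% in the other 5 nodes. It did not pass the filter on low counts and was not tested.

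The edgeR F test for any difference among the 6 deeper nodes called 32 of the 90 members tested, against 60.9% of all 16878 genes. The test does not compare the spleen, but its libraries entered the low-count filter, the scaling and the spread of that fit. Fitted without the spleen libraries, 71 of 90 members were called, against 69.9% of all 17619 genes tested. Leaving out the second spleen library alone moved the count to 67, and the share of all genes called in that fit is not given here. In the order of the smallest p the first members were Rpl39l, Rpl10l, Rpl4, Rpl38, Rpl12, Rps3, Rpl15 and Rps12, with edgeR adjusted p of 0.000435 to 0.00274. Rpl10l stood at only 0.119 to 5.71 CPM of plain totals in the node libraries, where 3 counts correspond to 0.0434 to 2.34. Its share of the pool fell with depth over the 21 libraries (Spearman correlation -0.961). At 6 of the 7 sites the deepest library held its lowest share. The part of depth in the Rpl10l calls, here and below, was not tested.

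To ask how the composition of the pool differed, each library was scaled to its own sum of members. Then 39 of the 90 members differed among the nodes, against 67.4% of all genes on that scale. Rps4l, Rpl4, Rps3, Rpl15, Rpl38, Rpl12 and Rps27l were among the members with the smallest p. Rpl22 held 0.128% to 0.415% of the pool in the nodes and was called (edgeR adjusted p = 0.0215), whereas Rpl22l1, at 0.319% to 0.564%, was not (edgeR adjusted p = 0.322).

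**Figure D4:**
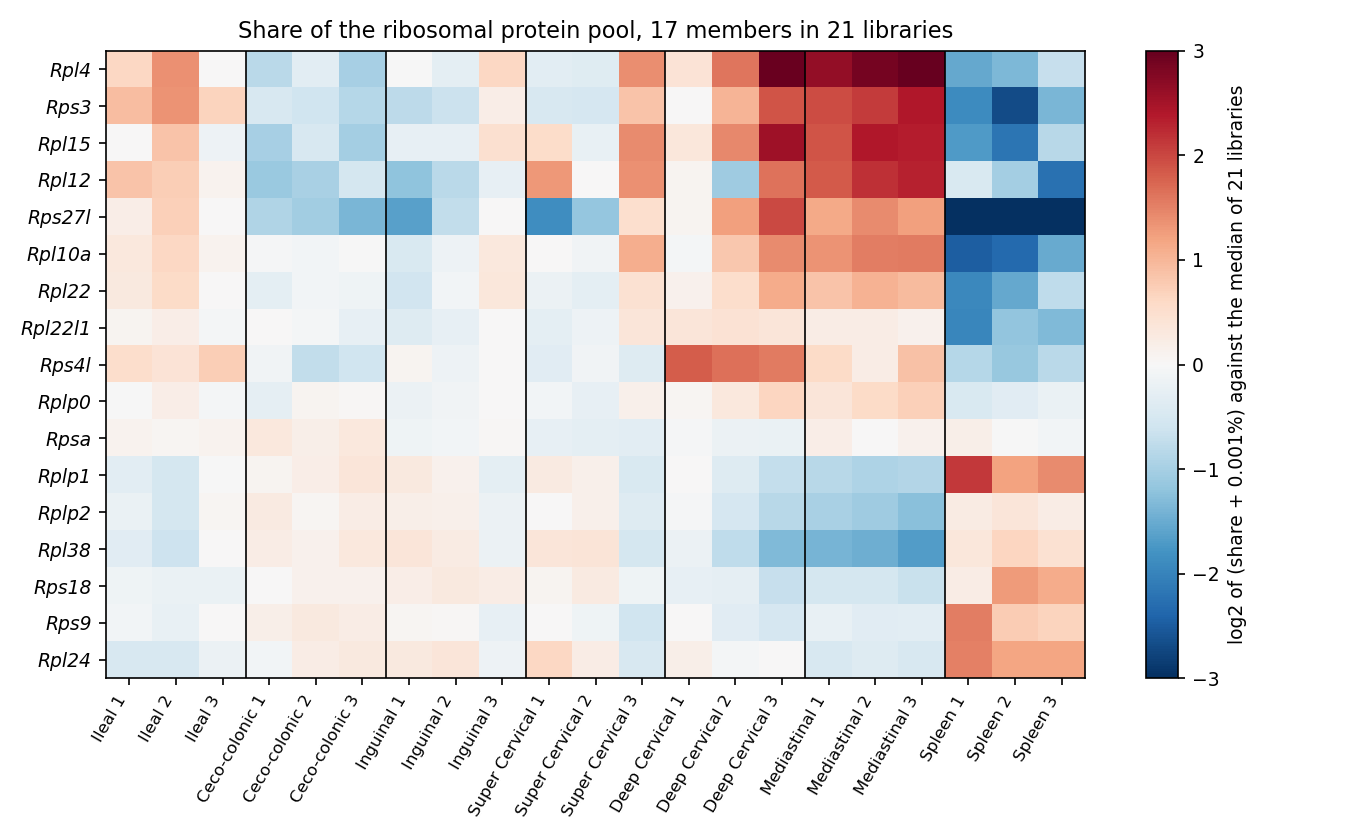
Share of the ribosomal protein pool for 17 members (rows) in 21 libraries (columns, 3 per site), coloured by the log2 ratio of the share plus 0.001% to the median of the 21 libraries. Rpl4, Rps3 and Rpl15 are high in the mediastinal node and in the third deep cervical library, Rps4l is high in the deep cervical node, and Rplp1 is high and Rps27l low in the spleen.

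The mediastinal node had the most mixed pattern. Against the mean of the 5 other nodes 8 members were higher (26.2% of all genes were) and 20 lower (22.1%), of 90. The count of lower members is at the share of all genes, and that of higher members is below it. The 28 calls fell to 17, 11 and 9 without mediastinal replicates 1, 2 and 3, and rose to 43 without spleen replicate 2 and to 52 (17 higher and 35 lower) without all spleen libraries. The median log2 difference was -0.24 for the members, -0.295 to -0.044 with 1 library left out, and 0.10 for all genes. The split depends on the scaling. It was 17 higher and 20 lower with RLE size factors (median of all genes 0.25). Scaled to the members' sum it was 31 higher and 15 lower (median of all genes 0.58, of members 0.26). The shares of all genes called in these fits, with libraries left out or scaled otherwise, are not given here. Their counts of members are therefore not set against such a share. Rpl4, a large-subunit protein that reaches into the exit tunnel, stood at 316, 386 and 424 CPM in this node and at 48.6 to 256 in the 15 other node libraries. The groups did not overlap, and the difference was 1.91 ± 0.34 (log2, edgeR adjusted p = 0.000152). Rps3, a small-subunit protein at the mRNA entry site, stood at 521, 591 and 670 CPM against 108 to 400, again without overlap, and was 1.44 ± 0.28 higher (edgeR adjusted p = 0.000391). Rpl12, at 7.37, 9.92 and 9.76 CPM, rose by 1.78 ± 0.38 and Rpl15, at 122, 181 and 160 CPM, by 1.39 ± 0.29. Both overlapped the super cervical node. Rpl29 and Rpl37rt completed the 6 with the smallest p among those higher.

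The stalk pair and Rpl38 moved the other way. Rpl38, whose loss in mice disturbs the patterning of the axial skeleton, stood at 891, 888 and 694 CPM in the mediastinal node and 1.95 ± 0.47 lower than in the other nodes (log2, edgeR adjusted p = 0.00196). Rplp2 stood at 1377, 1326 and 1063 CPM and was 1.53 ± 0.43 lower (edgeR adjusted p = 0.00545). Rplp1 stood at 1163, 1140 and 1082 CPM and was 1.34 ± 0.41 lower (edgeR adjusted p = 0.00907). For each of these genes the third deep cervical library lay below the mediastinal ones, so the groups overlapped. Rpl10l, Rpl27, Rpl39l and Rpl27rt were also lower. Rpl10l was at 0.0797 to 0.155 CPM, in libraries where 3 counts correspond to 0.0434 to 0.0727 CPM of plain totals. Rplp0, the base of the stalk, differed by only 0.01 ± 0.32 (edgeR adjusted p = 0.976).

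Depth moved with these members. In the inguinal, super cervical and deep cervical nodes the third library was the deepest of its site, with 16823454, 9067640 and 15808815 counts. In each of the 3 it also held the highest share of Rpl4, Rps3, Rpl15 and Rps27l in the pool and the lowest share of Rpl38, Rplp1 and Rplp2. Over all 7 sites, spleen included, the deepest library had the highest share of Rps3 at 6 sites, of Rpl4 and Rps27l at 5 and of Rpl15 at 4. It had the lowest share of Rplp1 at 6 sites and of Rpl38 and Rplp2 at 5. The spleen went the other way for Rps3 and Rpl15, whose shares were lowest in its deepest library. The mediastinal libraries were the deepest of all, at 41240156 to 69139450 counts. The part of depth in the mediastinal pattern was not tested. Marker lists moved too. Higher in this node were 4 of 4 plasma cell, 4 of 4 erythroid, 4 of 6 B cell, 3 of 6 T cell, 3 of 6 tested sinus macrophage and 3 of 5 lymphatic endothelial markers, and 1 B cell marker was lower. Of the blood endothelial markers 1 of 3 was higher and 1 lower, and 1 of 4 fibroblast markers was higher. Their part was not tested either.

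In the deep cervical node the members were lower as a group of values. Of 90, 23 were lower (16.1% of all genes were) and 1 higher (21.9%), and the median log2 difference was -0.76 against 0.02 for all genes. Without the spleen libraries 64 were lower (19.6% of all genes) and 1 higher (24.2%). Rpl30 stood at 290, 242 and 179 CPM in this node and at 321 to 960 in the other node libraries, a difference of -1.39 ± 0.39 (log2, edgeR adjusted p = 0.00652). Rpl32 stood at 258, 240 and 167 CPM against 276 to 870, a difference of -1.27 ± 0.37 (edgeR adjusted p = 0.00829). Neither gene's groups overlapped, and the same held for Rps15a and Rps19, both of the small subunit, at differences of -1.24 ± 0.37 and -1.17 ± 0.36. Rpl39l and Rps12 overlapped the mediastinal node.

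Rps4l, named for its likeness to Rps4x, was the only member called higher in the deep cervical node, at 106, 84.6 and 60.4 CPM. The third ileal library, at 73.3 CPM, lay above the lowest of these, so the CPM overlapped. The difference was 0.77 ± 0.28 (log2, edgeR adjusted p = 0.0302). As a share of the pool it held 0.242%, 0.216% and 0.1997% there and at most 0.124% in any other node library, so the shares did not overlap. The members' sum, by which these shares are divided, was itself lowest in this node as a share of all counts. Rps4x itself held 333, 344 and 288 CPM, below all other node libraries. When libraries were scaled to the members' own sum, 9 members were higher and 2 lower in this node, and the median of all genes was then 0.91, so the fall of the 23 is relative to the other genes of these libraries.

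The deep cervical calls were sensitive to single libraries. Without deep cervical replicate 2 the calls fell to 2, and without replicate 3 to 4, while without spleen replicate 2 they came to 60 and without spleen replicate 3 to 49. The shares of all genes called in these fits are not given here, so these counts of members are not set against such a share. All 6 B cell markers and all 6 T cell markers were lower in the deep cervical node (medians -1.68 and -2.12 in log2), and all 4 erythroid markers were higher (median 4.15). Of the other lists, 2 of 6 tested sinus macrophage and 1 of 5 lymphatic endothelial markers were lower. Higher were 2 of 4 fibroblast and 1 of 4 plasma cell markers, and of 3 blood endothelial markers 2 were higher and 1 lower. Erythroid markers summed to 0.639% to 0.724% of counts there and to 0.0140% to 0.179% in the other 5 nodes. The part of these markers in the members' values was not tested. Fewer cells of a type and less RNA per cell cannot be told apart in such bulk samples.

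The ileal node, the deepest of the small-intestinal nodes, gave no call among the ribosomal protein genes. Against 4 nodes called non-digestive here (mediastinal, inguinal and both cervical), edgeR called 0 of 90 members (3.34% of all genes). Of the 90, 1 had an unadjusted p under 0.05, as had 2139 of all 16878 genes. DESeq2 and limma-voom also called 0. The median log2 difference was 0.07 for the members and -0.015 for all genes. Rpl22 differed by -0.01 ± 0.31 and Rpl22l1 by 0.07 ± 0.35. In the same contrast 4 of the 6 tested macrophage markers were higher in the ileal node (308 of all 16878 genes were), with a list median of 1.90. Also higher were 3 of 5 lymphatic endothelial markers (list median 1.66), 1 of 4 plasma cell, 1 of 3 blood endothelial and 1 of 4 fibroblast markers. No B cell, T cell or erythroid marker was called.

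Against the ceco-colonic node, again 0 of 90 passed with edgeR (0.474% of all genes), limma-voom called 0 and DESeq2 called 2. With edgeR 10 of the 90 had an unadjusted p under 0.05, as had 2534 of all 16878 genes. The median was -0.30 for the members, with 70 of 90 below 0, and 0.075 for all genes. Rpl7l1, at 28.0, 23.3 and 39.8 CPM in the ileal and 81.5, 115 and 119 in the ceco-colonic node, differed by -1.79 ± 0.49 without overlap (edgeR adjusted p = 0.0944).

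The other nodes gave few calls. The ceco-colonic node had 3 members higher than the 5 other nodes (3.35% of all genes were), Rpl7l1, Rpl10l and Rpl38. The pool shares of these 3 genes fell with depth over the 21 libraries (Spearman correlations -0.823, -0.961 and -0.742), and the part of depth was not tested. The count of 3 is at the share of all genes. It was 0 without any 1 of the 3 ceco-colonic libraries and without single ileal, inguinal, deep cervical or mediastinal libraries, and 11, 16 and 18 without deep cervical replicate 1, spleen replicate 2 and spleen replicate 3. The inguinal node had 1 lower (6.46%), Rpl10, and 17 calls in either direction without spleen replicate 2. For the ceco-colonic and inguinal fits with 1 library left out, the share of all genes called is not given here. Those counts of members are therefore not set against such a share. The super cervical node had 0 (6.99%), with DESeq2 calling 1 and 11 members at an unadjusted p under 0.05 (3618 of all 16878 genes). The ileal node had 0 (2.60%), and 3 members at an unadjusted p under 0.05 (1857 of all 16878 genes). Without the spleen libraries the ceco-colonic count was 29 (8.30% of all genes), the inguinal 28 (27.4%), the super cervical 12 (8.15%) and the ileal 0 (4.17%, with 3 at an unadjusted p under 0.05). Of these calls 27, 27 and 12 were higher in the ceco-colonic, inguinal and super cervical node. How many of all genes had an unadjusted p under 0.05 without the spleen libraries is not given here.

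**Figure D5:**
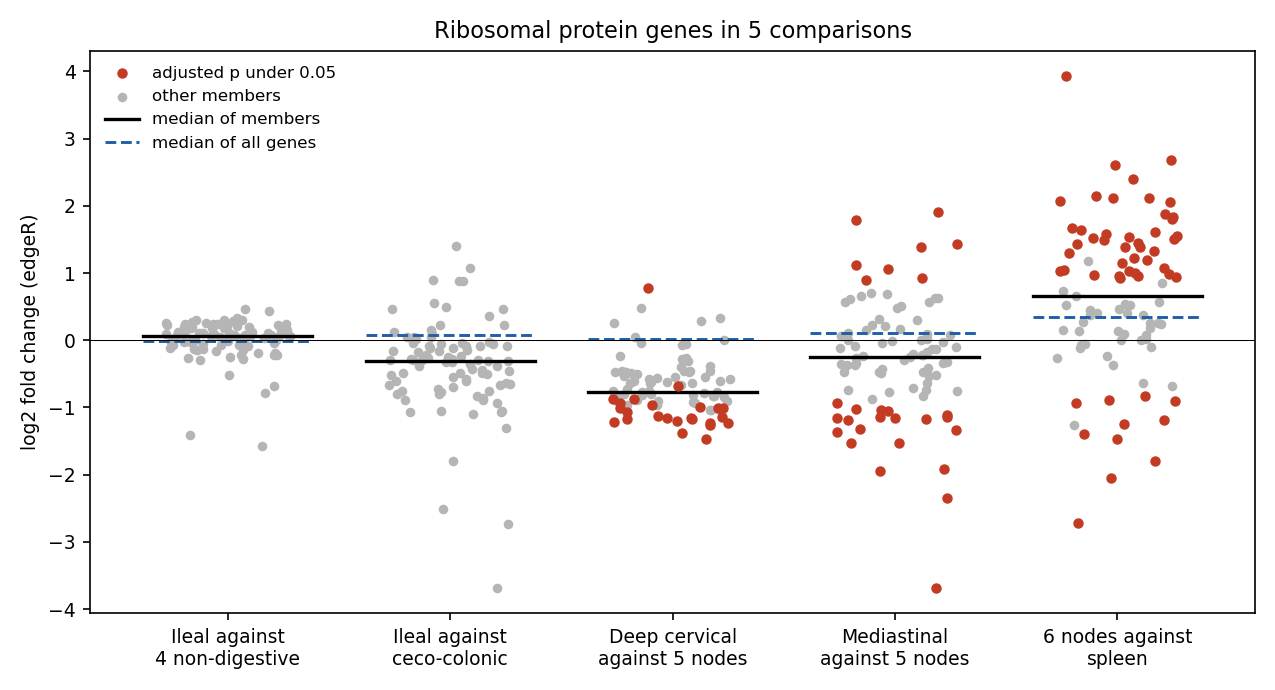
Log2 fold change (edgeR) of the members in 5 comparisons, 1 point per member, with Rps27rt, which had no spleen counts, left out of the plot. Red marks members past the threshold, black lines are the members' median and dashed lines the median of all genes, which are -0.76 and 0.02 for the deep cervical node.

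Rps27l, Rps3, Rpl10a and Rpl22 were lower in the spleen and Rplp1 higher. Depth moved with these members too. The spleen libraries held 2434063, 9619717 and 1165387 counts, and features with ribosomal RNA sequence took 25.3%, 5.55% and 42.7% of them. Over the 21 libraries, spleen included, pool shares were correlated with depth. The Spearman values were 0.745 for Rps27l, 0.781 for Rps3, 0.736 for Rpl10a, 0.721 for Rpl22 and -0.832 for Rplp1. The part of depth and library quality in these differences was not tested. Against the spleen, 42 of 90 members were higher in the 6 nodes (34.4% of all genes were) and 11 lower (27.1%). The median log2 difference was 0.70, and 0.35 for all genes. The 3 spleen libraries disagreed, as their member shares show, and against the second one alone 13 were higher (18.3% of all genes) and 22 lower (16.9%). That comparison has 1 spleen library, whose spread is taken from the other sites, so it gives no replicate check, and its library is also in the comparison above. The members' median was 0.0566 against that library, 1.73 without it and 0.455 without spleen replicate 3, so its size rests on single spleen libraries.

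Rps27l, a p53-induced paralog of Rps27, showed the largest fitted difference among members with spleen counts. It stood at 0.808, 8.24 and 2.73 CPM in the spleen and at 23.5 to 149 in the nodes, and was 3.93 ± 0.57 higher in the nodes (log2, edgeR adjusted p = 3.02e-06). Rps27, the parent gene, stood at 97.0, 122 and 112 CPM in the spleen and at 120 to 326 in the nodes. Rps3 stood at 39.6, 53.9 and 24.6 CPM in the spleen against 108 or more in each node library, a difference of 2.69 ± 0.39. Rpl10a, a protein of the stalk where tRNA leaves, stood at 21.8, 58.2 and 19.1 CPM against 101 or more, a difference of 2.60 ± 0.39. None of the 3 overlapped. Against the second spleen library alone the difference was 3.36 ± 0.82 for Rps27l and 2.42 ± 0.58 for Rps3. Rpl15 and Rpl34 were also among those with the smallest p. Rps27rt had 0 counts in all 3 spleen libraries and 0.609 to 25.0 CPM in the nodes, with 3 counts corresponding to 0.312 to 2.57 CPM of plain totals in the spleen.

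Rplp1 led the members that were higher in the spleen. It stood at 10120, 12770 and 2686 CPM in the spleen and at 827 to 5734 in the nodes, so the groups overlapped through the third spleen library. The difference was -1.80 ± 0.31 (log2, edgeR adjusted p = 3.23e-05). In the pool its share did not overlap, at 19.7%, 10.4% and 11.9% in the spleen and 2.37% to 5.76% in the nodes. Its partner Rplp2 held 6.77% to 7.41% of the spleen pool and 2.41% to 7.04% of the node pools. Rpl24, Rps9 and Rps18 were lower in the nodes by 1.39 ± 0.32, 1.19 ± 0.32 and 1.25 ± 0.34. All 3 rested on the second spleen library, without which edgeR called none of them and the differences were -0.732, -0.704 and 0.05. Rps18 stood at 1341, 6690 and 1093 CPM in the spleen.

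Erythroid markers summed to 0.599%, 4.54% and 1.01% of the spleen counts and to at most 0.724% in libraries of the 6 deeper nodes, and all 4 were lower in the nodes (median -5.67). Higher in the nodes were 5 of 6 T cell, 3 of 5 lymphatic endothelial, 2 of 6 tested sinus macrophage and 1 of 4 plasma cell markers. Of 6 B cell markers 3 were higher and 3 lower, of 4 fibroblast markers 1 and 3, and of 3 blood endothelial markers 1 and 1. The part of these markers in the spleen's values was not tested.

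Across all sites the planned comparison set the duodenal, jejunal and ileal nodes against 5 non-digestive nodes, iliac included. In that fit of 36 libraries 70 of 89 members were lower in the small-intestinal nodes (21.7% of all genes were) and 1, Rpl10l, higher (5.28%). On the scale of that fit Rpl10l stood at 22.5 to 50.3 CPM in the duodenal and 0.0949 to 0.629 in the ileal libraries. In the duodenal libraries 3 counts correspond to 7.79 to 13.5 CPM of plain totals. The median log2 difference was -1.42 for the members and -0.91 for all genes. Rps6, the target of S6 kinases, stood, on the scale of that fit, at 7.18 to 14.1 CPM in the duodenal, 18.9 to 535 in the jejunal and 561 to 564 in the ileal libraries, so the 3 small-intestinal nodes differed widely among themselves. Its difference in this comparison was -1.85 ± 0.42 (log2, edgeR adjusted p = 0.00267).

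These calls were not seen in a fit without the shallow libraries, which also has fewer sites and libraries. Depth, sites and number of libraries cannot be told apart there. Among libraries of 1000000 counts or more, which leave 1 jejunal and 3 ileal libraries on the intestinal side and no iliac library, edgeR called 0 of 91 members tested (4.13% of all genes were called), and 10 had an unadjusted p under 0.05. How many of all genes had an unadjusted p under 0.05 in that fit is not given here. Rpl22, at -1.02 ± 0.36 in the full comparison, and Rpl22l1, at -1.39 ± 0.42, both lost their call in it. Rpl36 had 0 counts in all 3 duodenal libraries, and its fitted fold change is no bound.

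Other groups of genes from the translation machinery were followed in the same fits. Of the 20 other mRNAs known for a 5′ TOP motif, such as those of elongation factors, 12 were higher and 2 lower in the nodes than in the spleen (34.4% and 27.1% of all genes were), 0 passed in the ileal contrasts, and 4 were lower in the deep cervical node (16.1%). In the mediastinal node 8 of these 20 were higher (26.2%) and 1 lower (22.1%). Of 22 ribosome biogenesis genes, 12 were higher and 6 lower in the nodes than in the spleen, and 4 were lower in the deep cervical node. Both counts of lower genes are near the shares of all genes just given. In the mediastinal node 6 of the 22 were higher and 7 lower. Of the 78 mitochondrial ribosomal protein genes 24 were higher in the deep cervical node (21.9% of all genes were) and 0 lower (16.1%), with a median log2 difference of 0.50 against -0.76 for the cytosolic ones. In the mediastinal node 32 were higher and 9 lower. Against the spleen 60 of the 78 were higher in the nodes and 3 lower.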

How the data were processed

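RNA from ribosome pull-downs was measured in 37 libraries. The deposited values are estimated counts per gene, made with kallisto per the submitters' processing notes, which also name edgeR, limma and the builds GRCm39 and mm10 without roles. The build behind the counts is therefore ambiguous, and coordinates here belong only to RefSeq promoters (GRCm38.p6). Of the values 32.8% were not whole, and counts were rounded before testing.

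Tests used edgeR 4.0.16 in R 4.3.3 (filterByExpr with a minimum count of 10 and a minimum total of 15, TMM, robust quasi-likelihood fit, 1 mean per site, Benjamini-Hochberg adjustment over all genes, threshold 0.05). One fit held the 21 libraries of the 6 deeper nodes and the spleen, which share 1 estimate of spread, and another all 36 pull-downs. Node-against-the-5-others contrasts and the fits without the spleen, against its second library, or scaled to the members' sum were added after the data were seen. Medians for lists and genes are of fitted log2 differences. Alternatives used DESeq2 1.42.0, limma 3.58.1 (voom), other scalings and filters, and each library left out. The scripts were tested on simulated data. Transcript lengths are medians per gene in GENCODE M21.

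The labels do not say that replicates are separate animals, so p-values measure only the spread between libraries. Replicates differed by far more than counting error, the chi-square divided by its degrees of freedom being 10.8 to 198 over 36 pairs. Intervals and floors (3 counts) cover counting error only. Named members are Rpl22, Rpl22l1, Rplp0, Rpsa and the paralogs, and in each comparison up to 6 per direction past the threshold with the smallest p (8 for F tests). A few members that this rule names are not reported here. Others, such as Rplp2, Rps4x and Rpl17, were named after their values were seen. The members and lists were chosen with earlier results of these data known.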

Additional observations from a re-analysis of the deposited data

How the results depend on the processing

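Of the comparisons, the ileal node against the 4 non-digestive nodes, and against the 5 other nodes, gave 0 members under every alternative run with edgeR, DESeq2 or limma-voom and with each library left out. Against the ceco-colonic node the count was 3 without a filter on low counts, 2 with DESeq2, and 0 to 1 with single libraries left out. The any-difference count was 71 in node libraries alone and 25 to 67 with 1 library left out. The spleen count was 35 against its second library alone. For the ceco-colonic node the count was 6 with RLE scaling, 8 without a filter, 12 with the replicate block, 19 with DESeq2, 29 in node libraries alone and 0 to 18 with 1 library left out (16 without spleen replicate 2, 18 without spleen replicate 3, 11 without deep cervical replicate 1). The inguinal count was 2 with RLE, 3 with the replicate block, 5 with DESeq2, 3 with limma-voom, 28 in node libraries alone and 0 to 17 with 1 library left out (17 without spleen replicate 2). The super cervical count was 1 without a filter, 1 with DESeq2, 12 in node libraries alone and 0 to 4 with 1 library left out. The deep cervical count was 44 with limma-voom, 65 in node libraries alone, 11 scaled to the members' sum and 2 to 60 with 1 library left out. The mediastinal count was 52 in node libraries alone, 46 scaled to the members' sum and 9 to 43 with 1 library left out (17, 11 and 9 without mediastinal replicates 1, 2 and 3, and 43 without spleen replicate 2). The pool-share count was 65 with limma-voom and 28 to 47 with 1 library left out. In the 36 libraries the count was 0 in libraries of 1000000 counts or more and 55 to 80 with 1 library left out. Where the share of all genes called in the same fit is not given above, these counts of members are not set against it. Beyond the fewer samples and genes such alternatives leave, the cause was not tested.

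Directions turned for a few genes. Rpl22 in the ileal node against the non-digestive nodes, -0.01 in the reported fit, was 0.037 without a filter, 0.00658 with the replicate block, 0.00363 with limma-voom, 0.0446 in node libraries alone and -0.0898 to 0.0897 with 1 library left out. Against the ceco-colonic node it ran from -0.191 to 0.10. Rps18 against the spleen ran from -1.55 to 0.0483. In libraries of 1000000 counts or more Rps14 was 0.169, Rpl36 0.246, Rpl6 0.202 and Rpl22l1 0.000803 in the small-intestinal nodes. The labels do not say that replicate numbers pair the samples, and not every same-number pair deviated together. Over 63 such pairs the correlation ran from -0.372 to 0.479 with a mean of 0.0512 (-0.0251 for different numbers), and 19 were over 0.1. As a hint from the data, not the design, 13 of 21 libraries correlated best with their own number, and the replicate block moved the ceco-colonic count from 3 to 12. Depth limits the duodenal, liver, celiac and iliac nodes, where 3 counts correspond to 3.27 to 13.5 CPM.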

Other observations

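Rpl35rt, Rpl37rt and Rpl27rt, named as retrogene copies, held larger shares of the ribosomal protein pool in the isotype control than in any of the 21 libraries of the deeper nodes and the spleen. The shares were 3.88%, 0.252% and 0.0949% in the isotype, against at most 0.612%, 0.213% and 0.0232%. Rps27rt, the other gene with this ending, was at 0.0321% in the isotype and at most 0.0349% in those libraries, and Rpl36al at 0.670% against 0.930% or more. Shallow pull-downs are left out of this comparison, and it was not tested.

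Rplp1 also held large shares of the pool in the iliac node, at 6.26%, 15.6% and 11.8%, and in the first 2 jejunal libraries, at 12.1% and 7.86%. The spleen shares were 19.7%, 10.4% and 11.9%, and no library of the 6 deeper nodes exceeded 5.76%. These iliac libraries held 1575, 14813 and 5401 member counts. Over the 21 libraries of the deeper nodes and the spleen the Rplp1 share fell with depth (Spearman correlation -0.832). The part of depth was not tested.

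The Spearman correlation of length with the log2 difference lay between -0.142 and 0.108 over 86 members in the 10 contrasts with a direction. The members share libraries and are not independent.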
